A study of Mus musculus with 11 samples.

Results

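The respiratory chain is encoded by 2 genomes, and its genes were followed in colon L cells and enterochromaffin (EC) cells of mice given estradiol benzoate (EB) or vehicle. Members were taken by symbol: nuclear genes whose names mark subunits of complexes I to V (Nduf, Sdha to Sdhd, Uqcr, Cox4 to Cox8, Atp5) and the mitochondrial genes ND1 to ND6, ND4L, CYTB, COX1 to COX3, ATP6 and ATP8. Of 49997 gene symbols 128 matched, and 113 reached 10 normalised counts in at least 2 libraries of 1 table or both. These 113 members were 100 nuclear and 13 mitochondrial genes, and the other 15 symbols stayed under that minimum in both tables. By kind they were 93 subunits, 8 complex I assembly factors, 1 supercomplex factor, 9 annotated or probable pseudogenes and 2 extra gene copies.

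Complexes I to IV pass electrons from NADH and succinate to oxygen, complexes I, III and IV pump protons out of the mitochondrial matrix as they do so, and complex V, the ATP synthase, uses the proton gradient to make ATP. Most subunits are made in the cytosol from nuclear genes and imported, while the core membrane subunits of complexes I, III, IV and V are read from the small circular genome inside the mitochondrion. Complex II has nuclear subunits only, and the colonic surface epithelium is known for heavy use of this chain to oxidise butyrate.

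All donors were ovariectomised C57BL/6 female mice, 10 to 14 weeks old. L cells, which secrete peptide YY and glucagon-like peptides, came from animals carrying Cck-Cre and the R26LSL-tdTomato reporter, 4 hours after EB (3 libraries) or sesame oil vehicle (2 libraries), so the sorted population is whatever expresses or once expressed Cck. EC cells, which secrete serotonin, came from the ECFLTG line after EB (4 libraries) or vehicle (2 libraries), with no time after treatment in the labels. Whether the libraries within a group are different animals is not stated. Each p below therefore refers only to the scatter among libraries, and that scatter may be technical.

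The reads on genes numbered 27658579 to 31449447 per L-cell library and 4955808 to 10640921 per EC-cell library. Both sets held transcripts of other cells. In the L-cell libraries the colonocyte markers (20 genes, led by Car1) took 6.83, 7.24 and 6.84% in the EB libraries, against 10.2 and 8.76% in the vehicle libraries, and the L-cell hormone markers took 0.0682, 0.200 and 0.322% in the EB libraries, against 0.0509 and 0.0194% in the vehicle libraries. In the EC-cell libraries the EC-cell markers (11 genes, among them Tph1, the serotonin-synthesis enzyme) took 0.829, 1.13, 4.83 and 12.5% in the EB libraries, against 7.49 and 8.98% in the vehicle libraries. The colonocyte markers took 3.18, 3.30, 0.995 and 0.631% in the EB libraries, against 1.24 and 0.330% in the vehicle libraries. EC libraries EB 1 and EB 2 therefore stood apart from the other 4, with few EC-cell transcripts and many colonocyte transcripts, and EC library EB 3 had a value above 0 for 30288 genes, against 15868 to 19859 in the other 5. In bulk samples fewer cells of a type and less RNA per cell cannot be told apart, and L cells and EC cells below are shorthand for these sorted samples.

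Several mitochondrial genes have near-identical nuclear copies, and the sequences are shown because they bear on how far the values of those genes can be read. A run of chromosome 1 (GRCm38, GENCODE M21) holds annotated pseudogenes of ND4, ND4L, ND3, COX3, ATP6, COX2 and COX1, placed side by side. The copy of COX2, Gm28661, matched the mitochondrial gene at all 681 aligned bases, and the copies of COX3, ATP6, ND4L and part of ND4 also matched without a mismatch over 783, 678, 294 and 876 bases. The stretch of COX2 at chrM:7308-7397 (plus strand) and the stretch of Gm28661 at chr1:24615181-24615270 (minus strand) are given first, with no difference in 90 bases. The stretch of COX1 at chrM:6381-6470 (plus strand) and that of its copy Gm29216 at chr1:24616108-24616197 (minus strand) follow, with the 6 mismatches of the whole 492-base alignment in capitals.
COX2: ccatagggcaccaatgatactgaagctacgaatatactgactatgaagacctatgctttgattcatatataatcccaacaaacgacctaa
Gm28661: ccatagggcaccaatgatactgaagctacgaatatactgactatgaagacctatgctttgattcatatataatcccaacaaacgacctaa
COX1: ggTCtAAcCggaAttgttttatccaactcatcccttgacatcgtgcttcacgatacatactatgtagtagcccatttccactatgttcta
Gm29216: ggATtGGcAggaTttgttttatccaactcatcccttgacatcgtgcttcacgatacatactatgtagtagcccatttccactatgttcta
All 6 differences of the COX1 copy lay at its 5′ end, and the rest of the aligned stretch was identical.

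Over whole transcripts, the share of 50-base stretches that also occur in another annotated gene was 100% for COX2, 99.9% for COX3, 99.5% for ATP6, 98.8% for ND4L and 98.0% for ND3. It was 62.2% for ND4, 51.1% for COX1, 8.19% for ND2, 7.61% for ND5 and 0% for CYTB, ND1, ND6 and ATP8. The genes with over 90% shared stretches were also the genes with low levels per length. Mean levels in the L-cell libraries were 14.4 normalised counts per kb for ND4L, 148 for ND3, 327 for COX2, 540 for ATP6 and 1231 for COX3, against 249546 for COX1, 116182 for CYTB and 69833 for ND1. In the EC-cell libraries these 5 genes had mean levels of 24.3 to 395 normalised counts per kb, and the 5 genes with under 10% shared stretches other than ATP8 had 13335 to 84855. ATP8 was also low, at 113 normalised counts per kb in L cells, with no 50-base stretch shared with another annotated gene. It overlaps ATP6 by 43 bases, and the 233 bases of chromosome 1 between the copies of ATP6 and COX2 hold no annotated gene. ATP8 lies between COX2 and ATP6 in the mitochondrial genome. Unannotated sequence was not searched, so the 0% does not show that ATP8 lacks a nuclear copy. The copy of ATP6, Gm10925, which has a row of its own, had 1514, 1627 and 1821 normalised counts in the EB L-cell libraries, against 2142 and 910.1 in the vehicle libraries, values above those of ATP6 itself, a gene of nearly the same length (346, 369.5 and 424, against 456 and 242). How reads matching several places were counted is not given in the sources used here, so levels of COX2, COX3, ATP6, ND3 and ND4L are uncertain, and the part that shared sequence plays in them was not tested. Whether counting used the strand is not given either, so reads from ND6 and from the end of ND5 that overlaps it on the other strand (14 bases) could not be told apart.

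**Figure D1:**
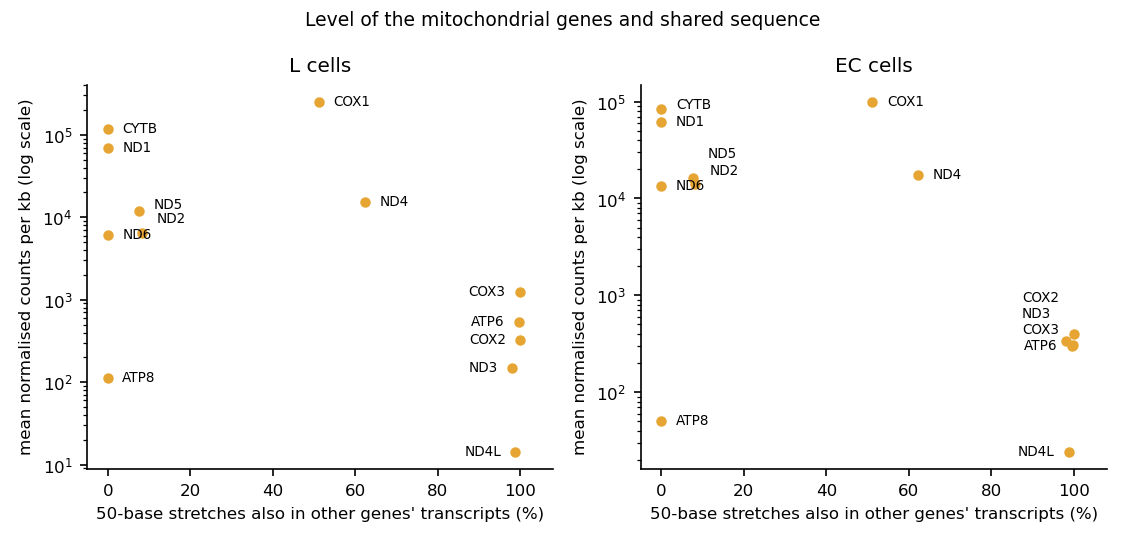
Mean normalised counts per kb of transcript (log scale) of the 13 mitochondrial genes against the percentage of their 50-base stretches also found in other annotated transcripts, in L-cell (left) and EC-cell (right) libraries. The 5 genes at 98.0% or more lie at or below 1231 normalised counts per kb in L cells, and ATP8 is low with 0% shared. Unannotated sequence was not searched.

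Nuclear subunits had mean levels in L cells with a median of 7826 normalised counts per kb over the 77 with an annotated length, led by Cox4i1 at 66609. In EC cells the median was 1978, again led by Cox4i1, at 12327. Each table was scaled on its own, so levels are not compared between L and EC cells. As means over libraries, per length, COX1, CYTB and ND1 stood above every nuclear subunit in both cell types. In L vehicle replicate 2 alone, CYTB (63760.1 normalised counts per kb) and ND1 (39854) lay below Cox4i1 (80928). Among nuclear genes 28 of 91 with a transcript shared over 10% of their 50-base stretches with another annotated gene, and 5 shared over 50%, so counts of those genes may be split with near-identical copies.

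The first comparison asked how the respiratory chain genes of L cells differed between EB and vehicle. Nuclear members had slightly lower values in the EB libraries, almost without exception. Of 99 nuclear members that passed the minimum, 98 had a lower mean on the log2 scale and 1, Cox8b, a higher one, with a median log2 fold change of -0.28 where the median of all 16217 genes tested was -0.00. Quantile normalisation left 93 of the 99 lower, with a median of -0.15. The medians by complex were -0.25 for complex I (42 genes), -0.16 for its assembly factors (8), -0.22 for complex II (4), -0.28 for complex III (8), -0.33 for complex IV (17) and -0.32 for complex V (19). Every EB library lay below every vehicle library for 68 of the 99, among them all 8 members of complex III, 28 of 42 of complex I, 11 of 17 of complex IV and 13 of 19 of complex V. Over all genes tested that held for 14% of genes, and the reverse order, which no nuclear member showed, for 14.3%. The 1 nuclear member that passed through vehicle libraries alone was Atp5l2-ps, and 97 of the other 98 were lower, with a median of -0.27. The 9 pseudogenes, whose reads could belong to their parent genes, had a median of -0.42, and the 8 other than Atp5l2-ps had -0.41. The counts and medians by complex include pseudogenes and extra copies. Of the 80 nuclear subunits alone, 79 were lower, with a median of -0.27, and 57 had every EB library below every vehicle library. Cox7a2l, the supercomplex factor, had a log2 fold change of -0.18. Of the colonocyte markers, 15 of 20 also had a lower mean in EB (median log2 fold change -0.42), while 10 of 10 L-cell hormone markers (median 2.25, 8 at an unadjusted p under 0.05) and 10 of 10 goblet cell markers (median 0.73) had a higher one. EC-cell markers had 7 of 8 tested higher (median 2.08). The goblet markers took 1.21, 2.49 and 1.91% in the EB libraries, against 0.601 and 1.21% in the vehicle libraries. The part of these cells in the nuclear values was not tested.

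No member passed the test over all genes. limma, with Benjamini-Hochberg adjustment, called 4 of 16217 genes (0.0247%) and none of the 111 members in L cells. At an unadjusted p under 0.05 limma counted 25 members, all nuclear and all lower, or 25.3% of the nuclear members where all genes gave 11.6%. By the other tools, edgeR called 0 genes, with 23 members at an unadjusted p under 0.05. DESeq2 called 519 of 16217 genes, with 29 members at that level. It called 2 of the 111 members, a smaller share than among all genes. For these tools and the alternatives below, the share of all genes at an unadjusted p under 0.05 was not counted. The 25 were spread over 7 members of complex I, 1 assembly factor, 1 member of complex II, 3 of complex III, 7 of complex IV and 6 of complex V. The count of 25 became 3 without EB replicate 2, 2 without EB replicate 3, 15 without vehicle replicate 2 and 4 after quantile normalisation.

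Complex III hands electrons from ubiquinol to cytochrome c, and it held the members with the smallest p. Uqcrq (chr11:53427922-53430831, GRCm38), a small structural subunit, had 9062, 7664 and 7678 normalised counts in the EB L-cell libraries, against 11209 and 11698 in the vehicle libraries. All 3 EB libraries were lower than both vehicle libraries. Its log2 fold change was -0.50 ± 0.13 (SE), with a limma p of 0.00596 and an adjusted p of 0.239, while DESeq2 gave an adjusted p of 0.0405. Uqcrfs1 (chr13:30540312-30545316), the Rieske iron-sulfur subunit, had 16598, 16121 and 15172 in the EB libraries, against 21219 and 21314 in the vehicle libraries, again with no overlap. Its log2 fold change was -0.41 ± 0.12 (SE), with a limma adjusted p of 0.271 and a DESeq2 adjusted p of 0.0412. Uqcrc1, a core subunit, had 38663, 35470.1 and 33082 in the EB libraries, against 42839.5 and 42095 in the vehicle libraries, a log2 fold change of -0.25 ± 0.14 (SE).

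In complex I, Ndufb10 (chr17:24722060-24724423), an accessory subunit of the membrane arm, had 8329.8, 8109.9 and 7538 in the EB libraries, against 9791 and 9133 in the vehicle libraries. The groups did not overlap, but the log2 fold change was small at -0.24 ± 0.12 (SE), with a limma adjusted p of 0.496. Ndufs5 and Ndufs4, accessory subunits, had the smallest p of the complex. Ndufs5 had 2721, 2389 and 2586 in the EB libraries, against 3359 and 3379 in the vehicle libraries, a log2 fold change of -0.40 ± 0.13 (SE). Ndufs4 had 2973, 2489 and 2537 in the EB libraries, against 3308 and 3881 in the vehicle libraries, a log2 fold change of -0.43 ± 0.15 (SE). In both genes the EB libraries were all below the vehicle libraries. Ndufb8, another membrane-arm subunit, overlapped between groups, at 16881, 14829 and 14909 in the EB libraries, against 17924 and 15880.4 in the vehicle libraries, and its lower mean turned higher after quantile normalisation (0.039). Among assembly factors, which help build complex I without staying in it, Ndufaf6 had 523, 496 and 455 in the EB libraries, against 675 and 724 in the vehicle libraries, a log2 fold change of -0.51 ± 0.17 (SE) (limma adjusted p 0.321), with no overlap. Ndufaf4 had a log2 fold change of -0.05 ± 0.27 (SE) with overlapping groups.

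Complex II oxidises succinate. Sdhb, its iron-sulfur subunit, had 19339, 17199.8 and 16853 in the EB libraries, against 22980.3 and 21647 in the vehicle libraries, with no overlap and a log2 fold change of -0.33 ± 0.13 (SE). Sdha, the flavoprotein subunit, had 27714, 27144 and 28024 in the EB libraries, against 29642 and 31381 in the vehicle libraries, without overlap and with a log2 fold change of -0.14 ± 0.12 (SE) that turned to 0.018 after quantile normalisation. Sdhc, a membrane anchor, overlapped between groups, at 4663, 3605 and 4115 in the EB libraries, against 4069.9 and 5946 in the vehicle libraries.

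In complex IV, cytochrome c oxidase, Cox4i1 (chr8:120668225-120674209) is the widely expressed form of subunit 4. It had 48758, 41540.3 and 44909.9 in the EB libraries, against 57661 and 61909.7 in the vehicle libraries, with every EB library lower. The log2 fold change was -0.41 ± 0.14 (SE), with a limma adjusted p of 0.333. Cox5a had 17883, 16147 and 16686 in the EB libraries, against 19975 and 23989 in the vehicle libraries, a log2 fold change of -0.37 ± 0.14 (SE). Of the isoforms known from muscle, lung or testis, Cox4i2, Cox6a2 and Cox8c stayed under the minimum in both tables, as did Ndufa4l2, the hypoxia-linked relative of Ndufa4. Cox8b, the muscle form of subunit 8, was the 1 nuclear member higher in EB L cells, at 13.1, 49.8 and 28.9 in the EB libraries, against 4.26 and 15.7 in the vehicle libraries, levels near the minimum, and the groups overlapped. Cox6b2, the testis form of subunit 6b, was also near the minimum, at 23.1, 10.9 and 5.42 in the EB libraries, against 12.8 and 14.6 in the vehicle libraries. Cox7a1, the heart and muscle form of subunit 7a, passed the minimum in both tables. In L cells it had 1952, 1967 and 1558 in the EB libraries, against 2233 and 2190.0 in the vehicle libraries. Its log2 fold change was -0.28 ± 0.15 (SE), beside -0.32 ± 0.14 (SE) for its widespread counterpart Cox7a2. The paired widespread forms Cox6a1, Cox6b1 and Cox8a had log2 fold changes of -0.36, -0.38 and -0.33, and Ndufa4 had -0.21.

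In complex V, Atp5o, which joins the catalytic head to the peripheral stalk, had 19885, 17788 and 17809.5 in the EB libraries, against 23630.2 and 24718 in the vehicle libraries, a log2 fold change of -0.39 ± 0.13 (SE). Atp5j2 (chr5:145183704-145191541), a small subunit of the membrane part, had 10135, 7305 and 8270.1 in the EB libraries, against 10804 and 12420.5 in the vehicle libraries, a log2 fold change of -0.45 ± 0.17 (SE). Both genes had every EB library below every vehicle library, and both missed the threshold, with limma adjusted p of 0.314 and 0.365. Atp5b, the catalytic beta subunit and the complex V gene with the highest level per kb, overlapped between groups, at 76811, 64974 and 74755 in the EB libraries, against 76146 and 96361 in the vehicle libraries. The 3 genes for the identical ring subunit c, Atp5g1, Atp5g2 and Atp5g3, had log2 fold changes of -0.33, -0.23 and -0.31. Their precursors differ only in the part removed on import.

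**Figure D2:**
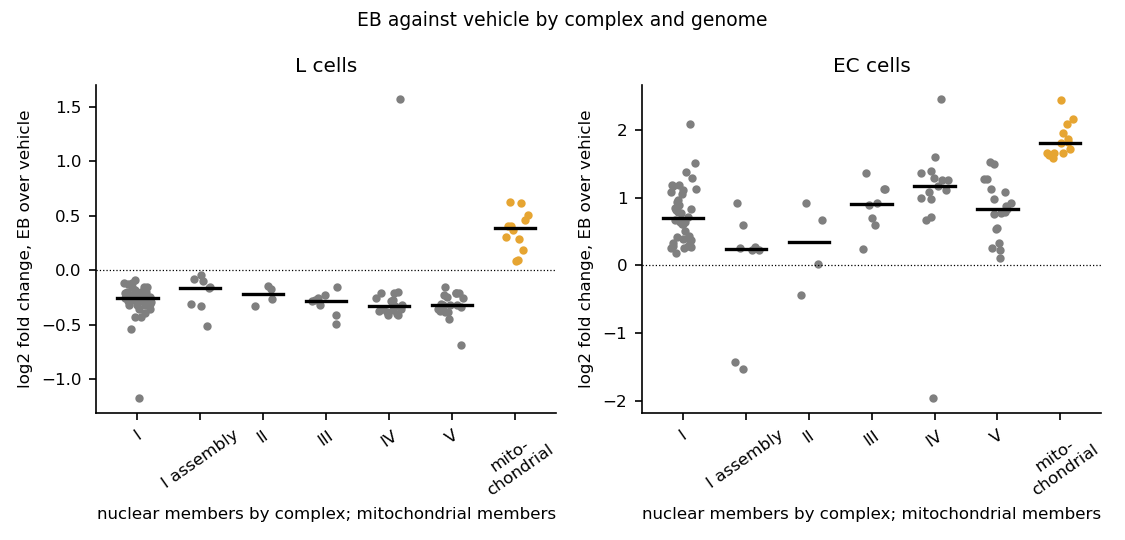
Log2 fold change of EB over vehicle for each member, by complex for nuclear members (grey) and together for mitochondrial members (orange), in L cells (left) and EC cells (right); black lines mark medians. In L cells nuclear medians lie between -0.33 and -0.16 and the mitochondrial median at 0.39, and in EC cells all medians are above 0. Members that passed the minimum through 1 group alone are included.

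The mitochondrial members of L cells had higher means in EB, a direction that rested on 1 vehicle library. All 12 that passed the minimum lay higher at a median log2 fold change of 0.39 (COX2 turned to -0.020 after quantile normalisation), and none was at an unadjusted p under 0.05 (0 called by limma, edgeR and DESeq2). Without vehicle replicate 2 the median was -0.16 and 10 of 12 were lower, and without vehicle replicate 1 it was 0.79. Vehicle replicate 2 was the lowest of the 5 libraries for 11 of the 12, an order that was not counted over all genes. It also had the most stromal transcripts, 0.0274% of values where the other 4 libraries had at most 0.00120%, and the part of that in its mitochondrial levels was not tested.

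CYTB (chrM:14145-15288), the cytochrome b of complex III, had 148123, 146460.0 and 136016 in the EB libraries, against 161020.0 and 72942 in the vehicle libraries. COX1 (chrM:5328-6872), the catalytic subunit of cytochrome oxidase, had 374936, 414022 and 439490.0 in the EB libraries, against 463455 and 235840.0 in the vehicle libraries. ND1, a membrane subunit of complex I, had 67942, 72437 and 76925 in the EB libraries, against 78706 and 38140.2 in the vehicle libraries. In each of the 3 genes all EB libraries lay between the 2 vehicle libraries, vehicle replicate 1 being highest and vehicle replicate 2 lowest. The log2 fold changes of CYTB, COX1 and ND1 were 0.40 ± 0.30 (SE), 0.31 ± 0.29 (SE) and 0.40 ± 0.28 (SE). ND6 (chrM:13552-14070), a complex I subunit and the 1 member on the minus strand of that genome, had 3304, 3592 and 3791 in the EB libraries, against 3965 and 1355 in the vehicle libraries, a log2 fold change of 0.62 ± 0.38 (SE). ND6, ND5 and ND2 followed that same order, and in ND4 EB replicate 3 lay just above vehicle replicate 1. ND5, ND4 and ND2 had log2 fold changes of 0.28, 0.37 and 0.50. Among the genes with nuclear copies, ND3 had a log2 fold change of 0.46, ATP6 0.19, COX3 0.09 and COX2 0.09. COX2 was the 1 gene in which vehicle replicate 2 did not lie lowest, at 213, 220.1 and 255 in the EB libraries, against 213 and 217 in the vehicle libraries. ATP8 had 28.1, 19.9 and 33.4 in the EB libraries, against 18.1 and 15.7 in the vehicle libraries, the 1 mitochondrial gene with every EB library above every vehicle library in L cells. ND4L stayed under the minimum there, at 8.04, 2.72 and 6.32 in the EB libraries, against 3.19 and 1.12 in the vehicle libraries. Without vehicle replicate 1 the log2 fold changes of ND6 and ND2 were 1.39 and 1.07, with vehicle replicate 2 as the only vehicle library.

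As a share of all summed values, nuclear members took 3.32, 2.85 and 2.92% in the EB libraries, against 3.38 and 3.22% in the vehicle libraries. On that scale the groups overlapped. The summed values themselves were 27801500, 28484600 and 28286600 in the EB libraries, against 30113000 and 32738900 in the vehicle libraries. Mitochondrial members took 2.33, 2.43 and 2.52% in the EB libraries, against 2.55 and 1.16% in the vehicle libraries, with vehicle replicate 2 lowest. The ratio of mitochondrial to nuclear sums was 0.702, 0.853 and 0.864 in the EB libraries, against 0.754 and 0.360 in the vehicle libraries.

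**Figure D3:**
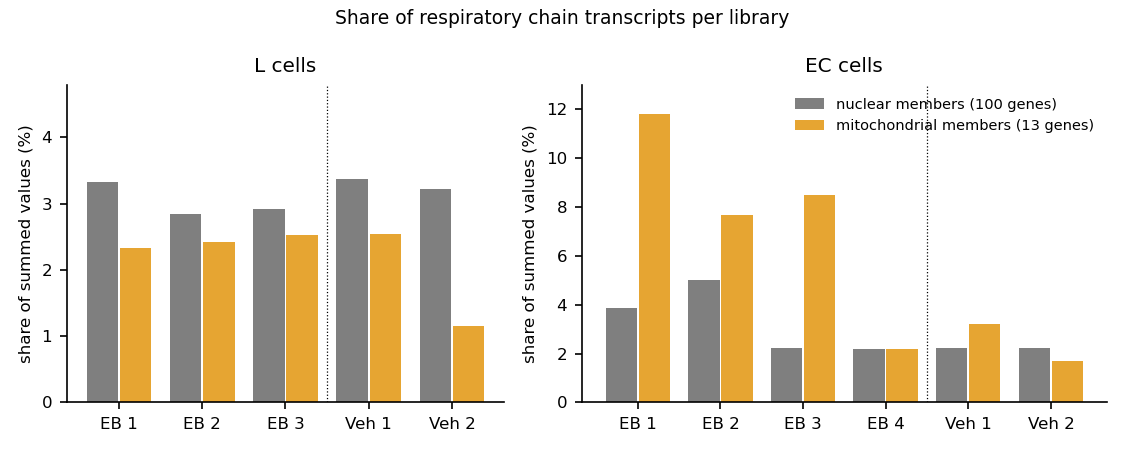
Summed values of nuclear (grey) and mitochondrial (orange) members as a percentage of all summed values, 1 pair of bars per library, EB left and vehicle right of the dotted line, in L cells (left) and EC cells (right). In L cells vehicle replicate 2 has a mitochondrial share of 1.16%, and in EC cells EB replicates 1, 2 and 3 have 11.8%, 7.65% and 8.48%. EC EB replicate 4 has 2.19%, and the EC vehicle libraries run from 1.68% to 3.21%.

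In EC cells, compared in the same way, genes of both genomes had higher values in EB. Of 95 nuclear members tested, 91 had a higher mean, with a median log2 fold change of 0.78 where all 15287 genes had -0.07. The 6 nuclear members with no vehicle library at 10 passed the minimum through EB libraries alone, and without them 85 of 89 were higher, with a median of 0.78. ATP8 and ND4L passed in the same way, and the other 11 mitochondrial members were all higher, with a median of 1.72. The nuclear medians were 1.17 for complex IV (15 genes), 0.91 for complex III (8), 0.83 for complex V (19), 0.70 for complex I (40), 0.35 for complex II (4) and 0.25 for the assembly factors (8). Those of complexes IV, V and I include the members that passed through EB libraries alone. Medians by complex without them were not computed, so the order of the complexes is not read. Of 6 pseudogenes tested 5 passed through EB libraries alone, so their levels are not read here. Cox7a2l had a log2 fold change of 0.47. The exceptions, lower in EB, were Sdha, Cox6b2, Ndufaf4 and Ndufaf1.

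No gene was called in EC cells by limma (0 of 15287, 0%) or edgeR, and DESeq2 called 15 genes and no member. In counts simulated from the EC-cell table, limma called 3.3% of genes changed by 2 on the log2 scale and 40.2% of those changed by 4. The lack of calls therefore does not show a lack of change. At an unadjusted p under 0.05 limma counted 5 of 95 nuclear members (5.26%) and 6 of 13 mitochondrial members, where all genes gave 3.55%. edgeR and DESeq2 counted 13 and 32 members. The share of all genes was counted for the main limma fit only. The limma count of 11 members became 2 without EB replicate 1, 2 without EB replicate 2, 18 without EB replicate 3, 42 without EB replicate 4, 3 without vehicle replicate 1 and 0 without vehicle replicate 2. Every EB library lay above every vehicle library for 22 nuclear members, 20 of which had a vehicle library at the minimum, and for 3 mitochondrial members, where all genes gave 4.98%. The reverse order, which no member showed, held for 6.3% of all genes.

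The higher means rested mostly on EB replicates 1 and 2, the libraries with few EC-cell transcripts. Both lay above the other 4 libraries for 82 of 95 nuclear members (77 of the 89 with a vehicle library at the minimum), an order shown by 15.5% of all genes. EB replicate 2 alone was the highest library for 79. With EB replicates 3 and 4 as the only EB libraries the nuclear median was 0.12, with 55 higher, 34 lower and the other 6 under the minimum there, and no member was at an unadjusted p under 0.05. For mitochondrial members, EB replicates 1, 2 and 3 lay above the other 3 libraries for all 11 that had a vehicle library at the minimum. How many of all genes had EB replicate 2 highest, or EB replicates 1, 2 and 3 above the rest, was not counted. With EB replicates 3 and 4 only the mitochondrial median was 0.89, with all 11 that passed the minimum higher. Of these libraries, EB replicate 4 had a mitochondrial share of 2.19% of summed values, between the vehicle libraries (1.68 to 3.21%). All 20 colonocyte markers had a higher mean in EB in the full set (median log2 fold change 2.40), and all 10 EC-cell markers tested had a lower one, with a median of -1.26. L-cell hormone markers had 9 of 10 lower (median -1.20), and goblet markers had 8 of 10 lower (median -0.99). The part of any of these cells in the values of the members was not tested.

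**Figure D4:**
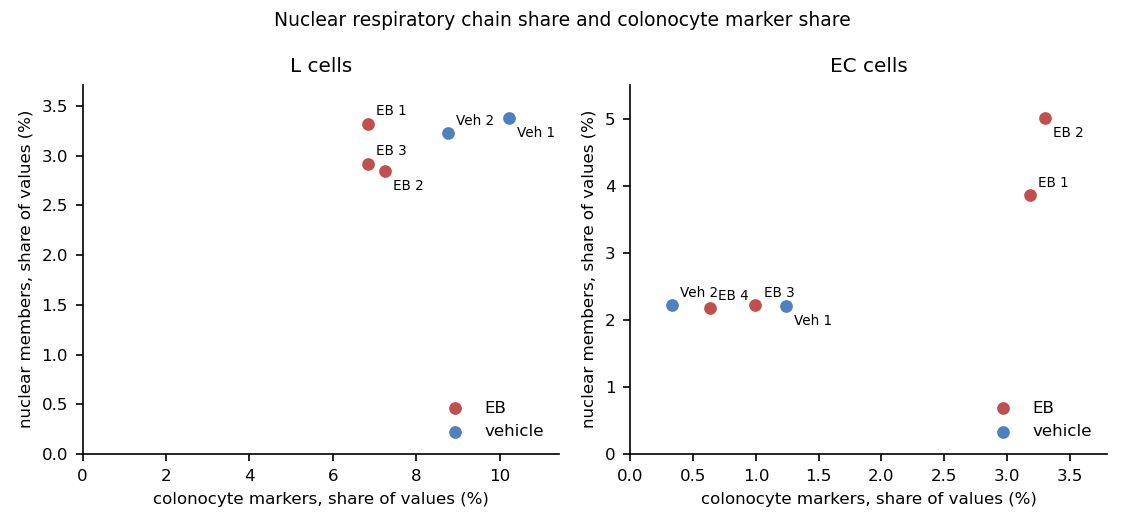
Share of all summed values taken by the nuclear members (vertical) against the share taken by the 20 colonocyte markers (horizontal), 1 point per library, EB in red and vehicle in blue. In EC cells EB replicates 1 and 2 lie at 3.18% and 3.30% colonocyte markers with 3.86% and 5.02% nuclear members, and the other 4 libraries lie between 2.18% and 2.23% nuclear members.

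Of the mitochondrial members, ND6 had the smallest p. It had 18138, 11991, 5689.7 and 2233 normalised counts in the EB EC-cell libraries, against 2058 and 1416 in the vehicle libraries. All 4 EB libraries were higher, though EB replicate 4 was close to vehicle. The log2 fold change was 2.09 ± 0.71 (SE), with a limma p of 0.0122 and an adjusted p of 0.905. CYTB had 218258, 163306, 107405 and 28794 in the EB libraries, against 41395 and 23289 in the vehicle libraries, with EB replicate 4 between the vehicle libraries and a log2 fold change of 1.72 ± 0.93 (SE). COX1 had 382330.0, 184973, 200771 and 52858 in the EB libraries, against 63809.9 and 34669.7 in the vehicle libraries, again with EB replicate 4 between the vehicle libraries. The complex I genes ND1, ND2, ND4 and ND5 had log2 fold changes of 1.67, 1.66, 1.66 and 1.96. Of those with nuclear copies, COX2 had 632, 464, 214 and 141 in the EB libraries, against 79.6 and 91.5 in the vehicle libraries, without overlap, and a log2 fold change of 1.83 ± 0.76 (SE). ATP6 had 425, 364, 258 and 79.2 in the EB libraries, against 62.5 and 43.0 in the vehicle libraries, also without overlap, at 2.17 ± 0.87 (SE). ND3 and COX3 had log2 fold changes of 1.59 and 1.63. ATP8, at 29.5, 22.2, 4.32 and 3.20 in the EB libraries, against 3.24 and 0 in the vehicle libraries, and ND4L, at 15.4, 18.2, 6.91 and 0 in the EB libraries, against 2.78 and 0 in the vehicle libraries, were too low for a fold change to be read.

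Among nuclear members, Ndufb10 had 2489, 2598, 1026 and 1284 in the EB libraries, against 759 and 633 in the vehicle libraries. Every EB library was higher, EB replicates 3 and 4 included, and the log2 fold change was 1.30 ± 0.51 (SE) (95% interval 0.19 to 2.41, limma p 0.0251, adjusted p 0.905). Ndufa10 (chr1:92439486-92473825), an accessory subunit, had 2116, 2258, 920.3 and 605 in the EB libraries, against 710.2 and 126 in the vehicle libraries, with EB replicate 4 below vehicle replicate 1 and a log2 fold change of 2.09 ± 0.73 (SE). Uqcrq had 7024, 8654, 2478 and 1759 in the EB libraries, against 1485 and 1645 in the vehicle libraries, without overlap, at 1.37 ± 0.63 (SE) (limma p 0.0506). Uqcr11, a small accessory subunit, had 6296, 6559, 3289.9 and 2276 in the EB libraries, against 1924 and 1893 in the vehicle libraries, without overlap, at 1.14 ± 0.52 (SE). Uqcrfs1 overlapped, at 3800.3, 5207, 1202 and 1434 in the EB libraries, against 1779 and 1242 in the vehicle libraries.

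The largest difference of a nuclear member was in Cox7a1 (chr7:30184171-30186030), with 922, 1075, 105 and 157 in the EB libraries, against 56.0 and 73.9 in the vehicle libraries. Its EB libraries were all higher, EB replicates 1 and 2 by far, and the log2 fold change was 2.46 ± 0.97 (SE) (limma p 0.0254, adjusted p 0.905). Cox7a2 had 5353, 6572, 1591 and 1569 in the EB libraries, against 1444 and 1619 in the vehicle libraries, with vehicle replicate 2 above EB replicates 3 and 4. Cox4i1 had 19101, 20342, 4456 and 4749 in the EB libraries, against 4253 and 3679.7 in the vehicle libraries, without overlap, at 1.27 ± 0.68 (SE). Atp5j2 had 4855, 6135, 1903 and 1629 in the EB libraries, against 1150.0 and 1420.3 in the vehicle libraries, without overlap, at 1.28 ± 0.58 (SE). Atp5b had 14346, 20987, 7696 and 8145 in the EB libraries, against 8199.7 and 7961 in the vehicle libraries, with EB replicate 3 below both vehicle libraries, at 0.54 ± 0.56 (SE). In complex II, Sdhb had 3769, 5689, 1732 and 1222 in the EB libraries, against 1524 and 1235 in the vehicle libraries, overlapping, and Sdha had 1407, 2289.6, 1780.2 and 1076 in the EB libraries, against 2104 and 2180.0 in the vehicle libraries, the 1 complex II gene with a lower mean in EB, at -0.44 ± 0.46 (SE). The assembly factor Ndufaf1 spread widely, at 1.40, 169, 85.6 and 253 in the EB libraries, against 116 and 213 in the vehicle libraries, with EB replicate 1 far below the rest.

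**Figure D5:**
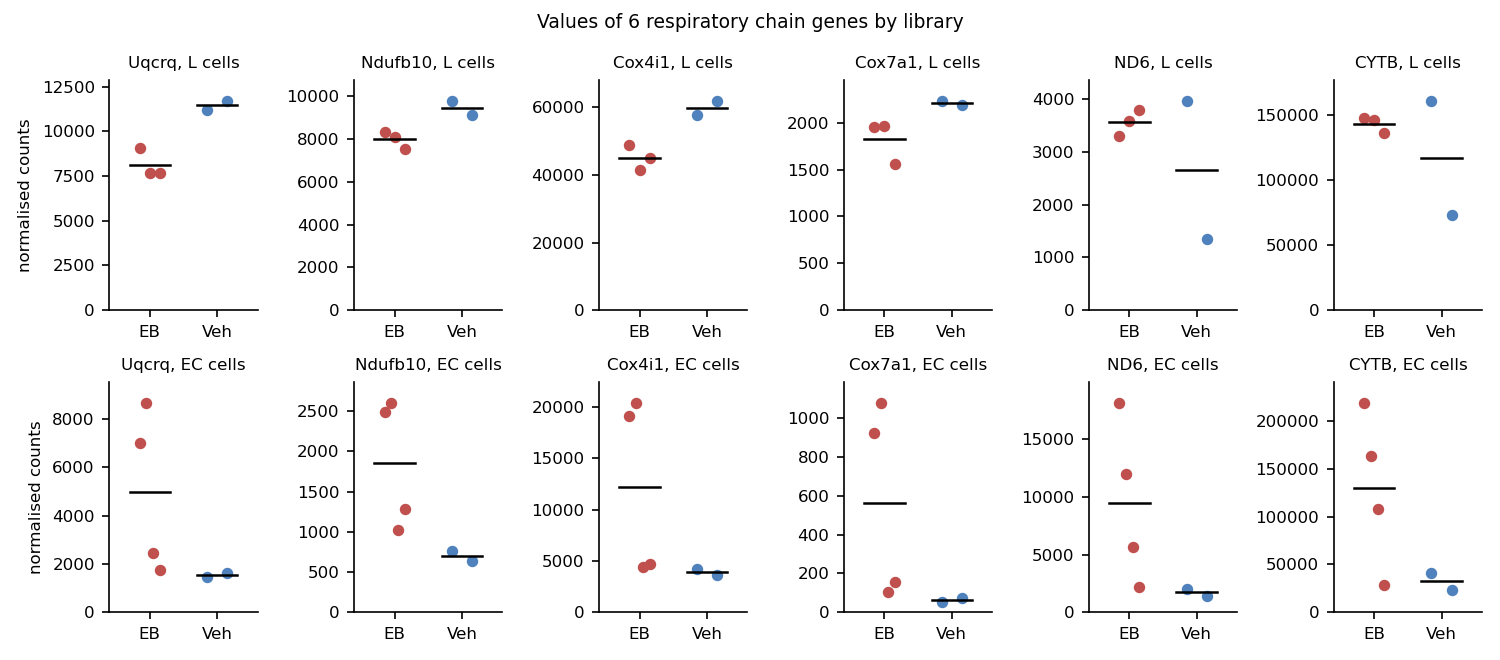
Normalised counts of Uqcrq, Ndufb10, Cox4i1, Cox7a1, ND6 and CYTB in every L-cell (top) and EC-cell (bottom) library, EB in red and vehicle in blue, with group means as lines. In L cells the 4 nuclear genes have every EB library below vehicle, and in EC cells EB replicates 1 and 2 lie far above the rest for these 4 genes.

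The difference between the EB effects, EC cells minus L cells, was tested over all 11 libraries. limma called 0 of 13802 genes (0%), and edgeR 0 and DESeq2 32, none of them members. What size of difference this test can call was not simulated. Of 94 nuclear members 90 had a more positive effect in EC cells, with a median difference of 1.06 where all genes had -0.09. All 12 mitochondrial members did so, with a median of 1.49. Both counts include genes, such as ATP8, that passed the minimum in EC cells through EB libraries alone. At an unadjusted p under 0.05 there were 8 nuclear and 0 mitochondrial members, where all genes gave 4.56%, a share counted for the main fit only. The limma count of 8 was 45 without EC EB replicate 4, 29 without EC EB replicate 3 and at most 4 without any other single library. The 3 smallest p belonged to Ndufb10, Ndufa10 and Atp5j2. Their differences were 1.54 ± 0.56 (SE) (95% interval 0.31 to 2.78), 2.34 ± 0.96 (SE) (95% interval 0.22 to 4.46) and 1.73 ± 0.73 (SE) (95% interval 0.12 to 3.33), each with a limma adjusted p of 0.862. For ND6 the difference was 1.47 ± 1.03 (SE) (95% interval -0.80 to 3.74), an interval that includes no difference.

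Other genes of the pathway are given by counts, where 50.3% of all genes were lower in L cells and 47.5% higher in EC cells. Assembly factors outside the name patterns had 34 of 42 lower in EB L cells (median log2 fold change -0.19) and 25 of 42 higher in EB EC cells (median 0.27). Tricarboxylic acid cycle genes had 15 of 17 lower in L cells, median -0.16, and 12 of 17 higher in EC cells, median 0.16. Glycolysis genes had 16 of 21 lower in L cells, median -0.09, and 15 of 21 higher in EC cells, median 0.30. Genes of mitochondrial transcription and RNA handling had 19 of 30 lower in L cells, median -0.07, and 19 of 30 lower in EC cells, median -0.23. The electron carrier Cycs, cytochrome c, and the complex III subunit Cyc1, cytochrome c1, had log2 fold changes of -0.31 and -0.27 in L cells and 1.10 and 0.73 in EC cells. Cyct, listed with them, had 0.43 in L cells and was under the minimum in EC cells. Known nuclear regulators of respiratory genes had 9 of 16 lower in L cells, median -0.06, and 8 of 16 lower in EC cells, median 0.07. At an unadjusted p under 0.05 limma counted 3 of these assembly factors, 3 glycolysis genes and 2 regulators in L cells, 1 assembly factor, 2 glycolysis genes and 1 regulator in EC cells, and called none of them. Over all genes that held for 11.6% in L cells and 3.55% in EC cells, so the 3 of 42 assembly factors (7.14%) lay below the share of all genes in L cells.

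The start regions of nuclear members are given as background. Whether they have any part in the differences between EB and vehicle was not tested. RefSeq promoters (GRCm38.p6, 250 bases before to 50 after the start) were found for 77 of 100 nuclear members, 82 promoters in all. The motif GCATGCGC, bound by NRF1, a known activator of respiratory genes, occurred on either strand in 14.6% of the 82, where it occurred in 2.71% of all 32851 promoters. AAGATGGCG, a YY1 motif, was in 9.76% against 1.40%, AAGGTCA, a half-site read by estrogen-related receptors, in 9.76% against 4.72%, and CCGGAAGT, an ETS motif, in 6.10% against 3.89%. These are matches of letters in a window, read with no test. Uqcr11 (chr10:80406772-80407071, minus strand) and Cox6a1 (chr5:115348909-115349208, minus strand) had matches, shown in capitals: an ETS and an NRF1 match in Uqcr11, and in Cox6a1 2 overlapping NRF1 matches, 1 per strand. Ndufb10 (chr17:24724374-24724673, minus strand) had none of the 4 motifs.
Uqcr11: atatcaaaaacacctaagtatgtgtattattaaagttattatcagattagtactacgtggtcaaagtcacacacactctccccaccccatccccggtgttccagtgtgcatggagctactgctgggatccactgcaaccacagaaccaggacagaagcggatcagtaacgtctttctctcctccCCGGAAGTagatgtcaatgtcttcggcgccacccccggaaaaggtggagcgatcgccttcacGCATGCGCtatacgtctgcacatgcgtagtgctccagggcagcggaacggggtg
Cox6a1: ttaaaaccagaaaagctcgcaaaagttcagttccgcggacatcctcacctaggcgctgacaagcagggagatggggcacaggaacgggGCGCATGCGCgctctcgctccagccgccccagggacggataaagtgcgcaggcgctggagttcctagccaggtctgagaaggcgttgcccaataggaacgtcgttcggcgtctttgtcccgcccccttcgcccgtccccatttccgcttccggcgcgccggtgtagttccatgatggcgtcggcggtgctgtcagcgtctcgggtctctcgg
Ndufb10: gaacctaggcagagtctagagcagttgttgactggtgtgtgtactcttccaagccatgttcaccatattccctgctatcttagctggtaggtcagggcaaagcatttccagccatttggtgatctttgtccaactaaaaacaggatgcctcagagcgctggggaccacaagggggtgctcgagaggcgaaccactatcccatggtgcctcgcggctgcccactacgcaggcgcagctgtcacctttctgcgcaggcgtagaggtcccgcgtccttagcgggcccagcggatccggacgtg
Beside these windows, Uqcr11, Cox6a1 and Ndufb10 had log2 fold changes of -0.23, -0.36 and -0.24 in L cells and 1.14, 1.11 and 1.30 in EC cells.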

How the data were processed

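RNA sequencing of sorted mouse colon cells gave 11 libraries in 2 tables. The deposited values were normalised counts, a signal in which the authors divided each gene's count by 1 size factor per library, each table on its own. The submitters' processing notes name STAR, featureCounts, DESeq2 and the build mm10, with no versions. Settings for reads that match several places and for strand are not given in the sources used here. Low values were whole multiples of 1 step, and 100% of values came out as whole reads (tolerance 0.001), with recovered size factors of 0.892 to 1.11 in L cells and 0.712 to 2.16 in EC cells. The members and gene lists were chosen with earlier results of these data known.

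Genes at 10 or more in 2 libraries were kept, and log2(value + 1) was tested with limma 3.58.1 (R 4.3.3, mean-variance trend) with Benjamini-Hochberg adjustment over all genes kept, at 0.05. Fold changes on that scale understate changes of low genes. Both tables entered 1 fit for the contrast of EC cells with L cells. Alternatives were pseudocounts of 0.5 and 4, no filter or a minimum of 50, TMM scaling, quantile scaling, count tests on the recovered reads (edgeR 4.0.16, DESeq2 1.42.0), a replicate block, each library left out, and EC cells with EB replicates 3 and 4 only. edgeR called 0 genes in L cells and 0 in EC cells, and DESeq2 called 519 and 15. The scripts were tested on counts simulated from the means, spread and library sizes of each table. In L cells limma called 64.8% of genes changed by 2 on the log2 scale and 88.3% of those changed by 4. In EC cells it called 3.3% and 40.2%. Named genes were all mitochondrial members, Uqcrq, Ndufb10, the smallest p and highest mean of each complex, tissue isoform pairs, assembly factors with the smallest p, the 3 smallest p of the difference, and any member called; others are named as exceptions and were chosen after their values were seen. Transcript sequences and coordinates came from GENCODE M21 and promoters from RefSeq, both on GRCm38.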

Additional observations from a re-analysis of the deposited data

Results flagged for a closer look

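The mitochondrial ribosomal RNAs, which are no members of the respiratory chain list, were above both vehicle libraries in every EB library of EC cells. mt-Rnr1, the small ribosomal RNA, had 70407, 54539, 54954 and 7144.8 normalised counts in the EB EC-cell libraries, against 5662 and 7091 in the vehicle libraries. mt-Rnr2, the large ribosomal RNA, had 651141, 349739, 344223 and 82418 in the EB libraries, against 54233 and 56618 in the vehicle libraries. EB replicate 4 lay close to vehicle for mt-Rnr1 and less so for mt-Rnr2. Of 45 named genes examined in the 4 EB EC-cell libraries, none had 1 library set apart from the other 3 by more than Dixon's critical value, a rule that chance meets in about 1 of 20 groups.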

How the results depend on the processing

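Each library left out in turn moved the number of genes called in L cells between 0 and 92, against 4, in EC cells between 0 and 1, against 0, and for the difference between 0 and 270, against 0, the 270 without EC vehicle replicate 1. A fit without a vehicle library keeps only 1 vehicle library of that cell type, so its calls carry no scatter between vehicle libraries there. In L cells the genes called were 139 with no filter, 15 after quantile normalisation, 0 by edgeR, 519 by DESeq2 and 56 with a replicate block. In EC cells DESeq2 called 15 and the replicate block 24, and for the difference DESeq2 called 32. The EB and vehicle libraries share only the numbers 1 and 2. Same-numbered libraries deviated together with correlations of 0.157 and 0.148 in L cells and 0.0360 and 0.00685 in EC cells. With 2 vehicle libraries their deviations mirror each other, so the same EB libraries had -0.157 and -0.148 with the other vehicle library in L cells. These values therefore cannot decide whether the numbers mark pairs. The main fit took no pairs, and the replicate block is given as an alternative. With the replicate block the nuclear median was 1.44 in EC cells and the difference 1.69 for nuclear and 2.31 for mitochondrial members. Members at an unadjusted p under 0.05 by limma then numbered 2 in L cells, 73 in EC cells and 78 for the difference, against 25, 11 and 8 without the block. How many of all genes reached that level with the block was not counted, so these counts are not read. The block called 8 EC-cell members, EB replicates 3 and 4 then having no vehicle partner. The nuclear median in L cells was -0.15 after quantile normalisation. With EB replicates 3 and 4 only, the EC-cell nuclear median was 0.12, and the difference 0.37 for nuclear and 0.55 for mitochondrial members.

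The mitochondrial median of L cells ran from -0.16 without vehicle replicate 2 to 0.79 without vehicle replicate 1. Under the same 2 settings CYTB ran from -0.17 to 0.98, ND6 from -0.16 to 1.39, ND5 from -0.20 to 0.77, ND4 from -0.048 to 0.79, ND3 from -0.43 to 1.36, COX3 from -0.17 to 0.36, ATP6 from -0.27 to 0.64, COX1 from -0.18 to 0.79, ND2 from -0.063 to 1.07 and ND1 from -0.12 to 0.92. With libraries left out, Sdhc ran from -0.53 to 0.012, Cox6b2 from -0.75 to 0.21, Ndufaf4 from -0.32 to 0.23 and Ndufaf1 from -0.38 to 0.051 in L cells, and Atp5g2 from -0.13 to 0.36 and Ndufaf6 from -0.074 to 0.65 in EC cells. Signs turned in L cells after quantile normalisation for COX2 (-0.020), Ndufb8 (0.039) and Sdha (0.018), and with the block for Cox6b2 (0.21) and Ndufaf4 (0.14). They turned in EC cells after quantile normalisation for Ndufaf6 (-0.045). With EB replicates 3 and 4 only they turned for Ndufs5 (-0.059), Sdhc (-0.26), Uqcrfs1 (-0.18), Uqcrc1 (-0.015), Cox5a (-0.16), Atp5b (-0.029), Cox8a (-0.19), Atp5g2 (-0.15), Atp5g3 (-0.036) and Ndufaf6 (-0.21). The causes were not tested. Of the main results under all alternatives, 130 values stayed, 22 moved and 1 turned sign. Each cell type has 2 vehicle libraries, and EC cells were sequenced less deeply than L cells. What part depth plays in the EC-cell counts was not tested.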

Other observations

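The mitochondrial ribosomal RNAs in L cells were lowest in vehicle replicate 2, as were most mitochondrial members, but vehicle replicate 1 was not the highest library. mt-Rnr2 had 94569, 89939 and 117110.0 normalised counts in the EB libraries, against 107272 and 59979 in the vehicle libraries, and mt-Rnr1 had 8021, 12231 and 14844 in the EB libraries, against 9323 and 4138 in the vehicle libraries.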
